A study of Mus musculus with 4 samples.

Results

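The protein components and assembly factors of small nucleolar ribonucleoproteins (snoRNPs) were examined in mouse embryonic fibroblasts (MEFs) with and without Pf1, the PHD finger protein encoded by Phf12. Members were the probe sets whose platform gene symbol was Fbl, Nop56 or Nop58 (box C/D core), Dkc1, Nhp2, Nop10 or Gar1 (H/ACA core), or Naf1, Nolc1 or Ruvbl1 (assembly). All 10 genes had a probe set, giving 18 of the 45101 probe sets of the table and 10 of the 18193 genes tested. The knockout group (Pf1 -/-) comprised MEF lines 2 and 4, and the wild-type group (labelled Pf+/+ or Pf1 WT) lines 5 and 6, with 1 array per line (n = 2 lines per genotype). The 4 lines share the number 7706, came from torsos of embryos at day 13.5 or 14.5, were grown at 6% oxygen and were used at passage 2 to 3. The study asks about the role of Pf1 in nucleolar integrity. The labels name neither the kind of Phf12 allele nor the embryo behind each line, so the p-values speak only for these lines. They use the spread between these lines together with variance borrowed from all genes.

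snoRNPs modify ribosomal RNA in the nucleolus. In box C/D particles, a guide RNA is held by Nop56, Nop58 and a small RNA-binding protein, and fibrillarin (Fbl) methylates the ribose of the target base. In H/ACA particles, the pseudouridine synthase dyskerin (Dkc1) acts together with Nhp2, Nop10 and Gar1. The H/ACA proteins also bind telomerase RNA. Naf1 holds the place of Gar1 while an H/ACA particle forms, Nolc1 (Nopp140) is a phosphoprotein that binds both kinds of particle, and Ruvbl1 is an AAA+ ATPase of the chaperone that loads box C/D proteins.

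The promoters of the 4 members that passed the test below are shown. RefSeq (GRCm38.p6) held a promoter window of 250 bases before to 50 after the start for 8 of the 10 members. The stretches run 5′ to 3′ on the strand of the gene and end before its outermost annotated start. Capitals mark a match to one of the motifs searched on both strands, CACGTG (E-box), CCGGAAG (Ets), ATGGCG (YY1 core), TGCGCA (part of the NRF1 site) and CTCGCGA.
Nop58, chr1:59684756-59684960, plus strand: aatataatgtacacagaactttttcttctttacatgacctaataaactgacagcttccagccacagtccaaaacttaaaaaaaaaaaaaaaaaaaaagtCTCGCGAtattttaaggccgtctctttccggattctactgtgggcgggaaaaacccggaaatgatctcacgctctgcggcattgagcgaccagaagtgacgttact
Nop56, chr2:130274162-130274366, plus strand: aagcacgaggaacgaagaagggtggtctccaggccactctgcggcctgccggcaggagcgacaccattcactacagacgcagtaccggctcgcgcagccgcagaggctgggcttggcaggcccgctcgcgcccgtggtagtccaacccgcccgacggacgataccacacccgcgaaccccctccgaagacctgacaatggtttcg
Nolc1, chr19:46075597-46075846, plus strand: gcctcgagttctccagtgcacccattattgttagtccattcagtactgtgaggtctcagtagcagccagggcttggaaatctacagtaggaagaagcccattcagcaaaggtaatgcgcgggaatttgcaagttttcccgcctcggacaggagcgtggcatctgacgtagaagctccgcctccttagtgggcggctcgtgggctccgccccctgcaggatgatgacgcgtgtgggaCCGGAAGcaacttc
Nop10, chr2:112261676-112261925, plus strand: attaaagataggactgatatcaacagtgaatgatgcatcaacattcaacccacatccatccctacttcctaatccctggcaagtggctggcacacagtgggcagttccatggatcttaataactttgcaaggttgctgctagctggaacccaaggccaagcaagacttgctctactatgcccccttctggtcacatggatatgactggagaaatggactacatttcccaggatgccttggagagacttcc
Nop58 carried CTCGCGA starting 106 bases before that outermost start, a motif found in 1.93% of all 32851 windows. Nolc1 carried CCGGAAG starting 14 bases before the start. Nop56 and Nop10 had no match to these letters in this window. CCGGAAG was also present in Nhp2 and Gar1 (on the opposite strand in Gar1), so 3 of 8 windows held it, against 8.86% of all windows. The 60 bases next to the start show where it lies in these members.
Nhp2, chr11:51619713-51619772, plus strand: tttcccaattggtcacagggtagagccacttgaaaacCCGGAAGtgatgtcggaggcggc
Gar1, chr3:129831408-129831467, minus strand: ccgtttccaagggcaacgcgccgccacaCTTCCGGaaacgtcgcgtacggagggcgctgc
The E-box, the YY1 core and the NRF1 letters were in 0 of the 8 windows, against 7.15%, 8.93% and 7.76% of all windows. The motifs do not overlap one another in the printed stretches, and a match describes letters only. In the same annotation, snoRNA genes lay inside the span of 3 members. There were 5 in Nop56 (among them Snord57 and Snord110), 4 in Nop58 (among them Snord11 and Snord70) and 1 in Dkc1. Of 21900 protein-coding genes, 1.7% held a snoRNA gene.

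The values are log2 expression, set so that the median of each probe set over the 4 arrays is 0, which fixes the middle pair of values at equal size and opposite sign. Pairs of values below follow the order of lines 2, 4 (Pf1 KO) and 5, 6 (Pf1 WT). The values show differences between lines but no level, so neither the members' abundance nor the fibroblast identity of the lines could be read from them. Of the Phf12 probe sets, 1434922_at was lower in the knockout (-0.37 and -0.41, against 0.56 and 0.37 in the Pf1 WT lines, limma adjusted p = 0.0206), while 1453579_at differed by 0.012 (limma adjusted p = 0.966). The mean of the Phf12 probe sets differed by -0.42 and did not pass (limma adjusted p = 0.0504). Wild-type line 6 stood apart in sex-specific transcripts. Its Xist value was 6.39 and its Y-linked Eif2s3y, Uty and Kdm5d were at -3.05, -2.15 and -1.63, while the other 3 lines lay between -0.047 and 0.13 for these genes. The members' differences were therefore also computed without that line.

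All 10 members had a higher mean in the knockout lines, and 4 of them, Nop58, Nolc1, Nop56 and Nop10, rose (limma adjusted p under 0.05 over all genes), where 5.21% of all genes rose. None fell in limma by adjusted p, where 6.95% of all genes fell. None was lower at an unadjusted p under 0.05 either, where 2765 of 18193 genes were lower. At an unadjusted p under 0.05, 8 members were higher, as were 14.3% of all genes. The median difference between knockout and wild type was 0.65 on the log2 scale over the members and -0.0027 over all genes, and 6 of 10 members were at least 1.5-fold higher, against 4.29% of all genes. In all 10, both knockout lines lay above both wild-type lines, as in 28.7% of all genes. After quantile normalisation 7 members rose, with Gar1, Dkc1 and Nhp2 added, and 6.41% of all genes rose. The members were chosen with earlier results of these data known, so these shares describe the list and test nothing.

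**Figure D1:**
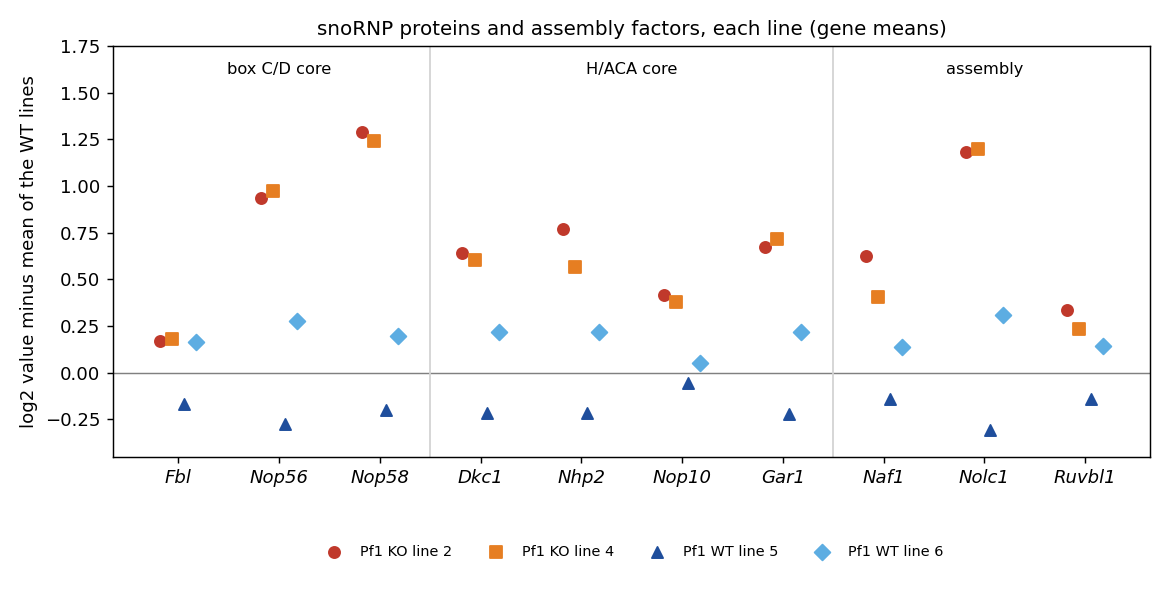
Gene means of the 10 members in each of the 4 lines, as log2 value minus the mean of the wild-type lines (vertical axis), grouped by complex; each point is 1 line. Both knockout lines lie above both wild-type lines in every member, with Fbl almost touching, and wild-type line 5 is lowest throughout.

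Of the box C/D core, Nop58 and Nop56 rose and Fbl did not pass. Nop58, which clamps the guide RNA opposite Nop56, read 0.57 and 0.52 in the Pf1 KO lines, against -0.92 and -0.52 in the Pf1 WT lines. The knockout lines were nearly level and the groups were 1.04 apart at their nearest lines. It rose 2.40-fold (log2 difference 1.27 ± 0.148 SE, n = 2 lines per genotype, limma adjusted p = 0.0168), the 77th largest increase of 18193 genes. Its single probe set was 1450986_at. SE values here and below come from the moderated fit, which borrows variance from all genes, and are not the plain spread of the lines. The within-genotype SD was 0.199 for Nop58, 0.278 for Nop56, 0.308 for Nolc1 and 0.0558 for Nop10.

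Nop56, its partner scaffold, read 0.33 and 0.37 in the Pf1 KO lines, against -0.88 and -0.33 in the Pf1 WT lines. The groups did not overlap, and line 5 was well below line 6. The gene rose 1.94-fold (0.96 ± 0.192 SE, limma adjusted p = 0.0409). Its probe sets 1426533_at and 1455035_s_at gave 1.01 and 0.90, the first with limma adjusted p = 0.0349 over all probe sets and the second with 0.0619.

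Fbl, the methyltransferase of the same particle, read 0.012 and 0.024 in the Pf1 KO lines, against -0.32 and 0.0091 in the Pf1 WT lines. Both knockout lines were nearly level with wild-type line 6, and line 5 alone was low. The difference was 0.18 ± 0.131 SE (95% interval -0.16 to 0.51, limma adjusted p = 0.454) and did not pass. Probe set 1416684_at overlapped between the genotypes (difference 0.12), and 1416685_s_at did not overlap (0.23). Without wild-type line 5, the gene's difference was 0.0092 and that of 1416684_at was -0.022, while without wild-type line 6 the gene's difference was 0.34 (limma adjusted p = 0.109).

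Of the 4 H/ACA core proteins, Nop10 rose and the others did not pass. Dkc1, the catalytic subunit, read 0.23 and 0.20 in the Pf1 KO lines, against -0.62 and -0.19 in the Pf1 WT lines. The knockout lines were above both wild-type lines, and the gap within the wild type (0.43) exceeded that to the nearest knockout line (0.39). The difference was 0.62 ± 0.158 SE, or 1.54-fold (limma adjusted p = 0.068), and its 3 probe sets gave 0.59 to 0.66. It passed after quantile (0.0464) and scale normalisation (0.0493), with limma adjusted p up to 0.0742 over its 7 alternatives with all lines. Dkc1 lies on the X chromosome. Without wild-type line 6, which differed in Xist, its difference was 0.84 (limma adjusted p = 0.0527, against 0.0527 to 0.262 without any 1 line).

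Gar1, which supports substrate turnover in the particle, read 0.23 and 0.27 in the Pf1 KO lines, against -0.66 and -0.23 in the Pf1 WT lines. The groups were 0.45 apart at their nearest lines. The difference was 0.69 ± 0.159 SE, or 1.62-fold (limma adjusted p = 0.0541), just short of the threshold. It passed after scale normalisation (adjusted p = 0.038), with array weights (0.0454) and with robust variance estimation (0.0473), and over all 6 alternatives with all lines its limma adjusted p ran from 0.035 to 0.0596.

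Nhp2, an RNA-binding core protein, read 0.38 and 0.18 in the Pf1 KO lines, against -0.61 and -0.18 in the Pf1 WT lines. Line 2 was the highest and line 5 the lowest. The difference was 0.67 ± 0.17 SE (limma adjusted p = 0.0679, and 0.0478 to 0.0745 over its 7 alternatives, the lowest after quantile normalisation), at 0.71 and 0.63 in its probe sets. Nop10, the smallest core protein, read 0.21 and 0.17 in the Pf1 KO lines, against -0.26 and -0.16 in the Pf1 WT lines. Its lines agreed most closely, with a within-genotype SD of 0.0558. It rose by the least of the called members, 1.32-fold (0.40 ± 0.0859 SE, limma adjusted p = 0.048), while neither of its probe sets passed alone (0.39 and 0.40, limma adjusted p = 0.0642 and 0.0879).

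**Figure D2:**
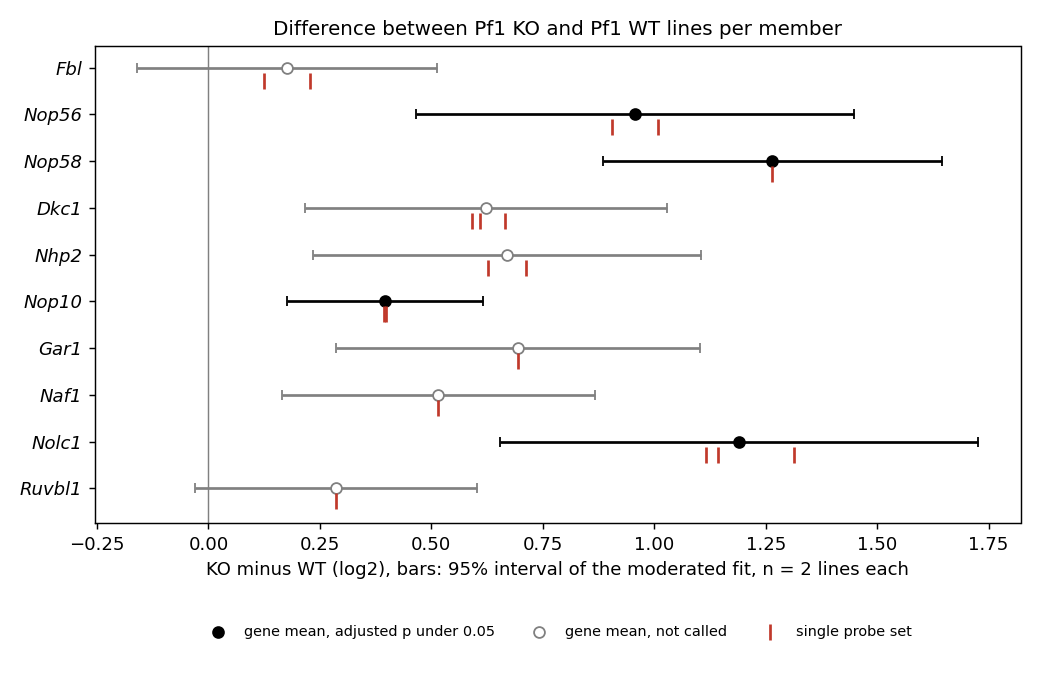
Knockout minus wild type on the log2 scale (horizontal axis) for each member, with the 95% interval of the moderated fit; filled circles passed at an adjusted p under 0.05 and red ticks are single probe sets. The intervals of Fbl and Ruvbl1 include 0, and probe sets of 1 gene lie within 0.20 of each other.

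Among the assembly factors, Nolc1 rose and the other two did not pass. It read 0.45 and 0.47 in the Pf1 KO lines, against -1.04 and -0.42 in the Pf1 WT lines. The knockout lines were level, and line 5 was far below line 6. Nolc1 rose 2.28-fold (1.19 ± 0.209 SE, limma adjusted p = 0.0319), the 92nd largest increase of 18193 genes. Probe sets 1428869_at, 1428870_at and 1450087_a_at each rose, by 1.14, 1.31 and 1.12 (limma adjusted p 0.0345 to 0.036).

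Naf1, the H/ACA assembly factor, read 0.35 and 0.13 in the Pf1 KO lines, against -0.41 and -0.13 in the Pf1 WT lines. Lines 4 and 6 were the nearest, 0.27 apart. The difference was 0.52 ± 0.137 SE (limma adjusted p = 0.0745). Ruvbl1 read 0.15 and 0.047 in the Pf1 KO lines, against -0.33 and -0.047 in the Pf1 WT lines. Its groups were 0.094 apart, and the difference of 0.29 ± 0.123 SE did not pass (95% interval -0.030 to 0.60, limma adjusted p = 0.206). Over all members, 5 of 18 probe sets rose, against 4.01% of all probe sets. These were all those of Nolc1, that of Nop58 and 1426533_at of Nop56, so they are not separate genes. Between the genotypes, 17 of 18 did not overlap, against 27.8% of all probe sets with the knockout lines higher.

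The wild-type lines differed from each other at every member. Line 5 was below line 6 in 10 of 10 members (51.5% of all genes) and was the lowest of the 4 lines in 10 of 10 (30.4% of all genes). The knockout lines had no common order, with line 2 above line 4 in 6 of 10 (51.9% of all genes). The difference between the genotypes exceeded both differences within a genotype in 9 of 10 members, with Fbl as the exception, and in 47.3% of all genes. In fits on 3 lines, with 1 residual degree of freedom, limma called none of the 10 members, whichever line was dropped. All 10 differences stayed above 0. Dropping line 2 left 6 members higher at an unadjusted p under 0.05 (8.17% of all genes), dropping line 4 left 8 (9.73%), dropping line 5 left 7 (11.1%) and dropping line 6 left 10 (15.2%). The median difference was 0.59, 0.66, 0.43 and 0.86 in that order, and 0, 321, 1 and 0 of all genes were called. Without line 6, the line that differed in sex-specific transcripts, every member's difference was larger than with all lines, since line 5 was the lower wild-type line in each. In the box C/D core it was then 1.46 for Nop58, 1.23 for Nop56 and 0.34 for Fbl. In the H/ACA core it was 0.91 for Gar1, 0.89 for Nhp2, 0.84 for Dkc1 and 0.45 for Nop10. Among the assembly factors it was 1.499 for Nolc1, 0.66 for Naf1 and 0.43 for Ruvbl1. The limma adjusted p of the 10 members lay between 0.0527 and 0.109 in that fit.

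Partners of 1 complex were then compared within each line, which cancels only a shift of equal size in both genes. Line 5 still stood apart in some pairs, as in Nop56 minus Fbl (-0.56, against -0.34 in line 6). These 9 pairs were chosen after the values had been seen. Nop58 minus Fbl was 0.56 and 0.50 in the Pf1 KO lines, against -0.59 and -0.53 in the Pf1 WT lines. The lines of 1 genotype were close (within-genotype SD 0.0433) and the genotypes differed by 1.09, at 1.06 to 1.12 with any 1 line left out. Nop56 minus Fbl differed by 0.78 and Nop58 minus Nop56 by 0.31, also without overlap. In the H/ACA core, Gar1 minus Dkc1 differed by 0.072 (within-genotype SD 0.0405). Nhp2 minus Dkc1 differed by 0.048 (SD 0.083) and Gar1 minus Nhp2 by 0.024 (SD 0.124), both with overlap between the genotypes. Each of these 3 partners minus Nop10 differed by 0.23 to 0.30 (within-genotype SD 0.165 to 0.184). With any 1 line left out, these 3 differences ran from 0.061 to 0.46. The pairs with Nop10 lay at -0.35 to -0.40 in wild-type line 5, against -0.019 to -0.070 in line 6. With 2 lines per genotype, the two-sided exact permutation test cannot go below p = 0.333, which 7 pairs reached (0.428 adjusted over the 9 pairs), while the other 2 gave p = 1.

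**Figure D3:**
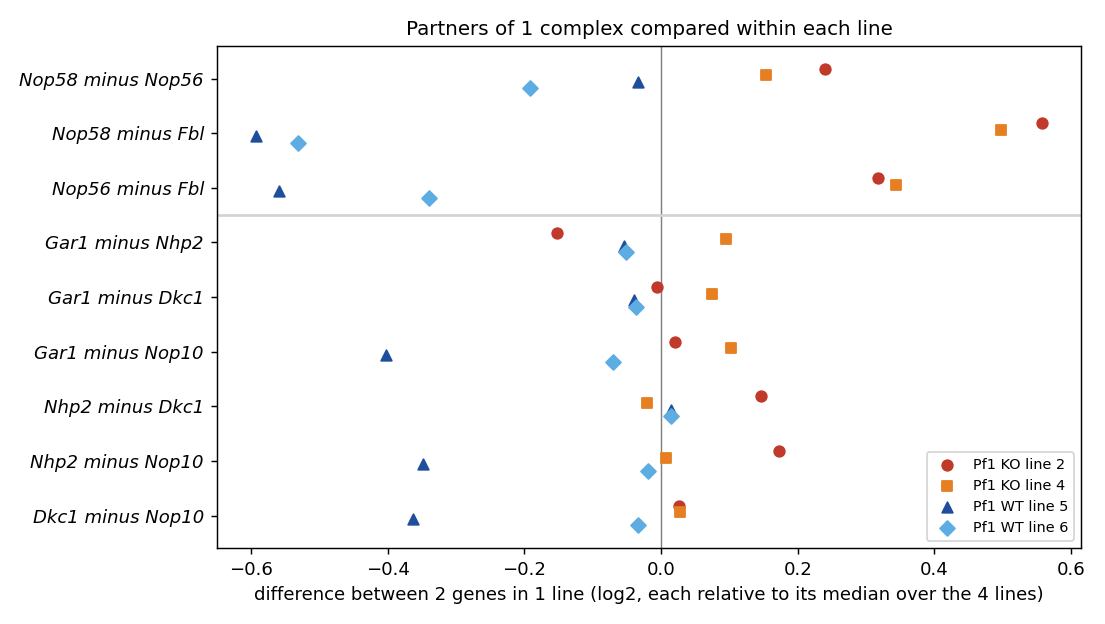
Difference between 2 genes of 1 complex in each line (horizontal axis, log2, each gene relative to its median over the lines), for the 3 box C/D pairs (top) and the 6 H/ACA pairs (bottom). The genotypes are farthest apart for Nop58 minus Fbl, and differ by at most 0.072 for the pairs among Gar1, Nhp2 and Dkc1.

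Other genes of the pathway were taken from lists. The counts in each list stand beside 5.21% of all genes that rose and 6.95% that fell in limma. At an unadjusted p under 0.05, 2603 of 18193 genes were higher and 2765 lower. Of 14 measured further snoRNP factors, 4 rose and 0 fell in limma (by unadjusted p under 0.05, 5 and 1), with a median of 0.22. Znhit3, a zinc finger protein of box C/D assembly, rose 2.42-fold (1.27 ± 0.151 SE, limma adjusted p = 0.0174), and Znhit6 of the same pathway rose by 0.62. Tgs1, which hypermethylates the cap of snoRNAs, rose by 0.72, and the U3 particle protein Rrp9 by 0.60. Ruvbl2, the partner ATPase of Ruvbl1, stood at 0.27 (limma adjusted p = 0.179) and Pih1d1 of the same chaperone at -0.33 (0.0597).

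RNA modification enzymes outside the core of these particles were compared next. Of all genes, 5.21% rose and 6.95% fell in limma. At an unadjusted p under 0.05, 14.3% were higher and 2765 of 18193 were lower. Of 12 methyl and acetyl transferases and cofactors, most of which act on ribosomal RNA, 2 rose and 0 fell in limma (6 and 0 by unadjusted p), with a median of 0.36. These were the cytosine methyltransferase Nop2 (1.15 ± 0.138 SE, limma adjusted p = 0.0178) and the adenosine dimethyltransferase Dimt1 (0.76 ± 0.128, limma adjusted p = 0.0299). Of 11 pseudouridine synthases other than Dkc1, several of which act mainly on transfer RNA, 1 rose and 0 fell in limma (4 and 0 by unadjusted p), with a median of 0.16. Trub2, a mitochondrial enzyme, was the one that rose (0.77 ± 0.134), and Pus10 had the next smallest p (0.42, limma adjusted p = 0.079).

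Noncoding host genes, which carry snoRNAs in their introns, were examined as well. Of 16 measured, 0 rose and 3 fell in limma (3 and 4 by unadjusted p), with a median of 0.0031. The shares over all genes were 5.21% and 6.95% in limma (2603 and 2765 of 18193 genes by unadjusted p). Snhg12 fell by 0.97 (SE 0.102, limma adjusted p = 0.0157), Zfas1 by 0.73 and Snhg18 by 0.60, while Gas5 stood at -0.14. Zfas1 read -0.39 and -0.30 in the Pf1 KO lines, against 0.48 and 0.30 in the Pf1 WT lines, the reverse of Nop58 and Nop56, which also hold snoRNA genes. The host genes went both ways, with 8 above 0 and 8 below. Snhg3 (0.52), Snhg4 (0.51) and Snhg1 (0.29) had the direction of Nop58 and Nop56. They did not overlap between the genotypes but did not pass (limma adjusted p 0.0643 to 0.114). These probe sets read the host transcripts and not the mature snoRNAs.

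Of 9 telomerase and telomere factors, 0 rose and 3 fell in limma (1 and 3 by unadjusted p), with a median of -0.16. The shares over all genes were 5.21% and 6.95% in limma (2603 and 2765 of 18193 genes by unadjusted p). Tert, the catalytic subunit, fell by 0.55 (SE 0.105, limma adjusted p = 0.0369), the poly(A) ribonuclease Parn by 0.56 and the shelterin protein Acd by 0.44. In all, 6 of the 9 were below 0 and 3 above. Pinx1 was the highest at 0.84 and did not pass (limma adjusted p = 0.0734). Myc, a regulator of nucleolar genes, stood at -0.088 ± 0.0896 (limma adjusted p = 0.596), and its dimer partner Max rose by 0.99 ± 0.16 (limma adjusted p = 0.0274). Mycn stood at -0.33 ± 0.196 (limma adjusted p = 0.34). It read -0.51 and 0.062 in the Pf1 KO lines, against 0.12 and 0.10 in the Pf1 WT lines, so only line 2 was low. Without any 1 line, limma called none of the genes named in these lists, except Max without knockout line 4.

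**Figure D4:**
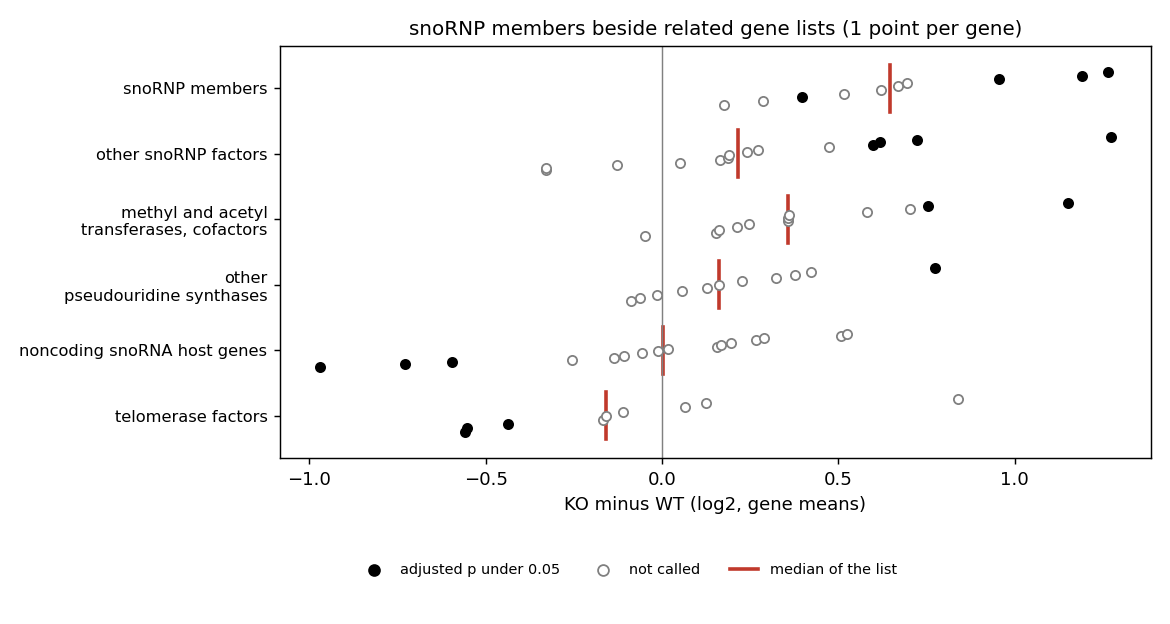
Knockout minus wild type (horizontal axis, log2, 1 point per gene) for the snoRNP members and 5 related lists; filled points passed at an adjusted p under 0.05 and red bars are medians. The members' median is 0.65, that of the noncoding host genes 0.0031 and that of the telomerase factors -0.16.

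The genes whose profile over the 4 arrays lay nearest to the mean profile of the members were Ppm1g, Sft2d1, Lrr1, Mcm4 and Gen1, with a root mean square distance of 0.017 to 0.0284 on the log2 scale. Their differences were 0.65 to 0.72, a range that follows from how they were picked. Among the members, Dkc1 (0.0327) and Gar1 (0.0394) lay nearest to that mean profile and Nop58 (0.294) farthest.

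Other measures moved with the genotype or with the lines. Of 15 proliferation genes, 13 were higher in the knockout, 6 of them at an unadjusted p under 0.05, and limma called 0 (1 to 3 in 5 of the alternatives). Of all 18193 genes, 8955 were higher in the knockout, 2603 of them at an unadjusted p under 0.05. The proliferation genes' median relative to the wild-type mean was 0.29 and 0.33 in the Pf1 KO lines, against -0.15 and 0.15 in the Pf1 WT lines. This is the same order of wild-type lines as in the members. Smooth muscle markers rose in 6 of 8 (median 0.68), epithelial markers rose in 3 and fell in 1 of 9 (0.63), and fibroblast markers fell in 6 and rose in 1 of 10 (-0.72). Macrophage markers were called in 0 of 9 (limma, 0 at an unadjusted p under 0.05). Their median relative to the wild-type mean was 0.024 and 0.79 in the Pf1 KO lines, against 0.85 and -0.85 in the Pf1 WT lines. This measure always gives the wild-type lines equal size and opposite sign. Of 7 skeletal muscle markers 1 rose, and of 6 endothelial markers 1 rose and 1 fell. Beside these marker counts, 5.21% of all genes rose and 6.95% fell in limma. Array controls for 18S rRNA had means of 0.64 and 0.070 in the Pf1 KO lines, against -0.070 and -0.77 in the Pf1 WT lines. The 3′ minus 5′ difference of the actin control lay between -0.0022 and 0.071 in all lines. In these bulk samples, a different share of a cell type and a different amount of RNA per cell cannot be told apart, and the part of these measures in the members' differences was not tested.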

How the data were processed

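Total RNA of 4 MEF lines was labelled with biotin and hybridised to 1 Affymetrix array each. The deposited values are log2 expression made with Affymetrix Expression Console and RMA, per the submitters' processing notes, which give no version. RMA works in log2, and that base was assumed. Every deposited probe set had a median of 0 over the arrays (100%, within 1e-06), a step the labels do not describe. The series text names the 430A 2.0 array, but the 45101 probe sets matched the annotation of a larger array of that family. Without detection calls, signal over background is unknown. Precision is limited by the number of arrays.

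Probe sets of several genes (932) and controls (64) were left out. Of 34945 single-gene probe sets, 34741 matched RefSeq by Entrez identifier. Knockout minus wild type was fitted with limma 3.58.1 (lmFit, eBayes; R 4.3.3) on the mean of a gene's probe sets (18193 genes) and on 44105 probe sets, without covariates, with 2 residual and 3.04 prior degrees of freedom. SE values and intervals use the moderated variance of eBayes. Adjusted p-values are Benjamini-Hochberg values over all genes or all probe sets, and a feature was called under 0.05.

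The members and lists were chosen with earlier results of these data known. Named genes were all members, Phf12, the called members of each pathway list (or the 2 with the smallest p), Myc, the 5 genes nearest the members' mean profile and the sex-specific transcripts. Ruvbl2, Pih1d1, Gas5, Snhg1, Snhg3, Snhg4, Pinx1 and Mycn were named after their values were seen.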

Additional observations from a re-analysis of the deposited data

How the results depend on the processing

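With all 4 lines, the members' median difference stayed between 0.61 and 0.65 under scale and quantile normalisation, array weights, robust variance estimation and other ways of combining probe sets. The count of members that rose was 4 to 6 in these alternatives, except 7 after quantile normalisation. Nop58, Nop56, Nolc1 and Nop10 were called in each of their 7 alternatives with all lines. With 1 line left out, the count of members called was 0 in every fit, as was the count of probe sets, while the median difference ranged from 0.43 (without wild-type line 5) to 0.86 (without wild-type line 6). These fits have fewer samples and 1 residual degree of freedom. Among the members, only the Fbl probe set 1416684_at changed sign, with a range of -0.022 (without wild-type line 5) to 0.27 (without wild-type line 6). The filter on low signal and the choice of the brightest probe set could not be run, since the values hold no level. Gar1 had only an _s_at probe set and dropped out when those were left out. No paired analysis was possible because, beyond the 7706 common to all lines, the knockout lines (2 and 4) and the wild-type lines (5 and 6) have no number in common.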
